A study of Mus musculus with 6 samples.

Results

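Cytochrome c oxidase subunit genes that exist in muscle and ubiquitous forms were followed on 6 arrays of embryonic mouse heart. The set held 10 genes, chosen by name as the paired or single nuclear-encoded subunits of the enzyme: Cox6a2, Cox7a1 and Cox8b are muscle forms, Cox6a1, Cox7a2, Cox8a and Cox4i1 ubiquitous forms, Cox4i2 the lung form, and Cox5a and Cox5b have no muscle partner. All 22 probe sets whose annotation names exactly 1 of these genes were used, out of 34945 probe sets naming 1 gene. The genes were picked with the difference between the groups already known, so their differences and calls below are a description, and no p-value is given for them.

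Cytochrome c oxidase is complex IV, the last enzyme of the mitochondrial respiratory chain, which passes electrons from cytochrome c to oxygen and pumps protons across the inner membrane. Its catalytic core is encoded by mitochondrial DNA, and the nuclear-encoded subunits around that core tune its activity and stability. Several of those subunits come in alternative forms made by separate genes, and in rodent heart the muscle forms of subunits 6a, 7a and 8 become more prominent as the heart matures.

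The hearts were taken at stage E12.5 of embryonic life from mice of strain C57BL/6. The labels give 3 arrays as wildtype and 3 as Rhau KO, that is, from mice with a deletion of Rhau, now Dhx36, an RNA helicase that unwinds G-quadruplexes; the allele and any Cre driver are not given in the sources used here. Each array carried labelled RNA of 1 sample, and 3 hearts were dissected for either label. Signals are the deposited log2 values, on which a difference of 1 is a doubling.

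Some properties of the arrays touch every value below. Dhx36 went against the labels, at 8.86 ± 0.14 in the arrays labelled wildtype and 10.27 ± 0.19 in those labelled Rhau KO (log2 signal, mean ± SD, n = 3 each), so groups go by their label and a direction below means Rhau KO label against wildtype label. All 3 Dhx36 probe sets were higher under the Rhau KO label, by 1.10, 1.41 and 0.90. No source used here says whether the Dhx36 probes lie within the deleted part, and whether labels were exchanged was not tested. The mean of 3 Y-linked genes, set to 100% in the brightest array (Rhau KO replicate 3), was 1.23%, 2.04% and 39.3% in wildtype replicates 1 to 3 and 59.6% and 82.8% in Rhau KO replicates 1 and 2. Xist was low in Rhau KO replicate 3 alone, at 5.10, and between 12.37 and 13.85 in the others. Wildtype replicate 3 and Rhau KO replicates 1 and 2 thus carried both signals. Whether those arrays held RNA of more than 1 embryo was not tested, so n counts arrays rather than embryos. All 8 cardiomyocyte markers were measured, with a summed linear signal of 235844 to 246527 in wildtype arrays against 206927 to 239598 in Rhau KO arrays, and 2 of the 8 were called lower, where 9.96% of all genes tested by their brightest probe set were. Against the same share, all 6 measured erythroid markers were called lower, with summed signals of 33836 to 38863 in wildtype arrays against 19170 to 26566 in Rhau KO arrays. The part of red cells in the results was not tested, and fits with the Y-linked signal are given after the isoform pairs. In RNA of whole hearts, fewer cells of a type and less RNA per cell cannot be told apart.

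The upstream sequences of 3 of these genes are shown, the only ones held with a match to the motifs marked. They are the 2 muscle genes that differed most between the groups and Cox6a1, a ubiquitous gene that is the partner of neither. Each is the stretch of 250 bases before the annotated start in RefSeq (build GRCm38.p6), 5′ to 3′ on the gene's strand, and capitals mark matches on either strand to the GATA letters AGATAA, the E-box CAGCTG, the ETS letters CCGGAAG and the palindromic NRF1 motif.
Cox7a1, chr7:30183921-30184170, + strand: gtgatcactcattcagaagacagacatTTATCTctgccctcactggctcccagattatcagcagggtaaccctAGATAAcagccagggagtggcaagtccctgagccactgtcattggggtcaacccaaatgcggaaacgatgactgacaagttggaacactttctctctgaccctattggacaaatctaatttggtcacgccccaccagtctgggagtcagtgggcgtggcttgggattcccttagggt
Cox8b, chr7:140900447-140900696, - strand: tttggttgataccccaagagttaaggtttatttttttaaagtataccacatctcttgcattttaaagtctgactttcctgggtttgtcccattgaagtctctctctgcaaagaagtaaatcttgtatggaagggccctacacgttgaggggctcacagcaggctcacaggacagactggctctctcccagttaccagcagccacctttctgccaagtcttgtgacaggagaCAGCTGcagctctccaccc
Cox6a1, chr5:115348959-115349208, - strand: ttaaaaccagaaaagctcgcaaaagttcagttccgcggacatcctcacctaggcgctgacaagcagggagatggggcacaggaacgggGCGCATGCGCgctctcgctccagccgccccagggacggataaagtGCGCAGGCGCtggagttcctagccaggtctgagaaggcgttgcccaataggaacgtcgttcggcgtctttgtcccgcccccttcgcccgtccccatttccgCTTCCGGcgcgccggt
Cox7a1 held 2 GATA matches, with first bases at -223 and -177 from the start, and Cox8b held 1 E-box match at -19. Cox6a1 held NRF1 matches at -162 and -117 and an ETS match at -16. The Cox6a1 window had 62.8% G and C bases, against 51.2% for Cox7a1 and 47.2% for Cox8b. The median of 32851 windows was 52.4%. Windows of Cox7a2 and Cox8a, the partners of the muscle genes shown, had 54.8% and 52.8%, and those of Cox5a and Cox5b 63.2% and 62.4%. Over all those windows, AGATAA occurred in 9.99%, CAGCTG in 13%, CCGGAAG in 6.91% and the NRF1 motif in 3.74%. Windows were held for 7 of the 10 genes; the other 4 (Cox5a, Cox5b, Cox7a2 and Cox8a) had no match to these motifs. TATAAA, the MEF2 motif and the CArG box matched in 0 of the 7 windows and in 12.4%, 1.69% and 1.47% of all windows. A match in letters is not evidence that a factor binds there, and a missing match covers only this window.

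The muscle forms did not move together. Cox7a1 and Cox8b were lower under the Rhau KO label and Cox6a2 was not. Cox7a1, the muscle form of a small membrane subunit, measured 12.29, 12.20 and 12.16 in wildtype replicates 1 to 3 and 11.90, 11.72 and 11.67 in Rhau KO replicates 1 to 3. Every Rhau KO array lay below every wildtype array, and the difference of -0.45 (SE 0.066) is a 1.37-fold lower signal. Cox8b, the muscle form of subunit 8, measured 11.23, 11.01 and 10.97 in the wildtype arrays against 10.63, 10.43 and 10.35 in the Rhau KO arrays. Again the groups did not overlap, and the difference of -0.60 (SE 0.090) is a 1.51-fold lower signal.

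Cox6a2, the heart and skeletal muscle form of subunit 6a, measured 13.002, 12.75 and 12.75 in wildtype replicates 1 to 3 and 12.98, 12.84 and 12.85 in Rhau KO replicates 1 to 3. The groups overlapped, with a difference of 0.054 (SE 0.072). Its other probe set, whose name marks possible cross-hybridisation, measured 11.72, 11.73 and 11.63 against 11.94, 11.69 and 11.70, with a difference of 0.081 (SE 0.072). Rhau KO replicate 1 was the high array in that comparison, and without it the difference was -0.0010; with each array centred on its median the brighter probe set stood at -0.015. Between the muscle forms, the change of Cox6a2 exceeded that of Cox7a1 by 0.50 (SE 0.059) and that of Cox8b by 0.65 (SE 0.048), while Cox7a1 and Cox8b differed in their change by 0.15 (SE 0.049). These are within-array log2 ratios compared between the labels. Their SEs come from the spread of the arrays alone, while the SEs of single probe sets are those of limma.

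**Figure D1:**
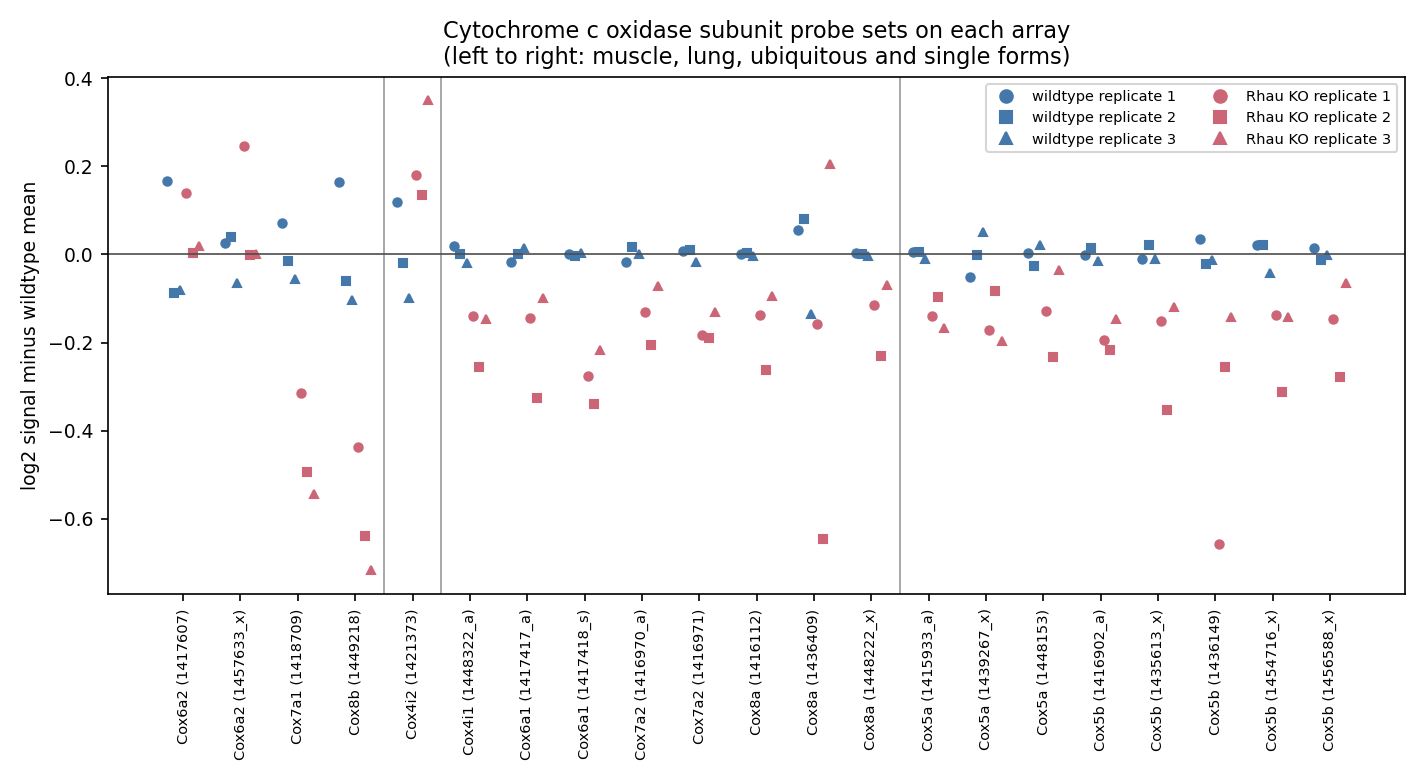
Log2 signal of each member probe set on each array, minus that probe set's wildtype mean (vertical axis), for 21 of the 22 probe sets; the Cox5b probe set near the lower end of the scale is left out, and vertical lines part the muscle, lung, ubiquitous and single forms. Cox7a1 and Cox8b lie furthest below 0 on the Rhau KO arrays among the muscle forms, the bright ubiquitous and single forms lie below 0 by smaller amounts, and Cox6a2 straddles 0.

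Ubiquitous forms were lower by smaller amounts. Cox6a1, the partner of Cox6a2, measured 14.60, 14.62 and 14.64 in the wildtype arrays against 14.48, 14.30 and 14.52 in the Rhau KO arrays on its brightest probe set, a difference of -0.19 (SE 0.058). The groups did not overlap, and Rhau KO replicate 2 was the lowest array. The other Cox6a1 probe set, named as shared between transcripts, measured 14.04, 14.04 and 14.05 against 13.77, 13.70 and 13.83, a difference of -0.28 (SE 0.046).

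Cox7a2, the partner of Cox7a1, measured 14.76, 14.80 and 14.78 in the wildtype arrays against 14.65, 14.57 and 14.71 in the Rhau KO arrays, a difference of -0.14 (SE 0.046). On its other probe set the values were 14.15, 14.15 and 14.12 against 13.95, 13.95 and 14.01, a difference of -0.17 (SE 0.042). Both probe sets put all Rhau KO arrays below all wildtype arrays.

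Cox8a, the partner of Cox8b, measured 13.67, 13.67 and 13.66 in the wildtype arrays against 13.53, 13.40 and 13.57 in the Rhau KO arrays, a difference of -0.16 (SE 0.051). A second Cox8a probe set differed by -0.14 (SE 0.050), also without overlap. The dimmest, with a mean signal of 6.64, measured 6.80, 6.82 and 6.61 against 6.58, 6.10 and 6.95; its groups overlapped and its difference was -0.20 (SE 0.24).

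Cox4i1 encodes the ubiquitous form of subunit 4, which carries a regulatory binding site for adenine nucleotides. It measured 14.52, 14.50 and 14.48 in the wildtype arrays against 14.36, 14.25 and 14.36 in the Rhau KO arrays, a difference of -0.18 (SE 0.046) with no overlap. Its alternative, Cox4i2, is the form of lung that is also raised by low oxygen. The mean Cox4i2 signal of 5.78 lay below the filter at 5.90, so it was not tested. Its values were 5.79, 5.65 and 5.57 in the wildtype arrays against 5.85, 5.80 and 6.02 in the Rhau KO arrays, 0.22 higher on average and near the lower end of the scale.

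Cox5a and Cox5b, single forms that bind the core on its matrix side, had differences near those of the bright ubiquitous probe sets. The brightest Cox5a probe set measured 14.51, 14.51 and 14.50 in the wildtype arrays against 14.37, 14.41 and 14.34 in the Rhau KO arrays, a difference of -0.13 (SE 0.041). The other Cox5a probe sets differed by -0.15 (SE 0.049) and -0.13 (SE 0.053), and none of the 3 had overlapping groups. Of 6 Cox5b probe sets, the brightest measured 14.53, 14.50 and 14.51 against 14.37, 14.23 and 14.45, a difference of -0.16 (SE 0.055). Another 3 bright ones differed by -0.19, -0.21 and -0.20. Probe sets of Cox5a, Cox5b and Cox8a are among those whose names mark possible cross-hybridisation. The remaining pair had low signals: one measured 7.26, 7.20 and 7.21 against 6.57, 6.97 and 7.08 (difference -0.35, SE 0.18), and the other, with a mean of 1.95, was below the filter.

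Across the set, 20 of the 22 probe sets passed the filter, and they cover 9 of the 10 genes. Differences ran from -0.60 to 0.081 with a median of -0.17, while the median over all 22796 tested probe sets was 0.027. Of the 20, 8 were called lower by limma at an adjusted p under 0.05, where 7.84% of all tested probe sets were; the 8 belong to 6 genes (Cox4i1, Cox5b with 3 probe sets, Cox6a1, Cox7a1, Cox7a2 and Cox8b). No probe set was called higher by limma (0 of 20, and 0 at an unadjusted p under 0.05 or with eBayes without trend), against 6.8% of all tested. In 17 of the 20 every Rhau KO array lay below every wildtype array, which held for 15.9% of all tested probe sets; in either direction 34.4% had groups that did not overlap. The choice of genes used this contrast, so nothing is read from these shares. The count of lower calls was 3 without wildtype replicate 1, 2 or 3 alike, 13 without Rhau KO replicate 3 and 15 with each array centred on its median, where all tested probe sets split into 2442 lower and 824 higher calls against 1788 and 1550 as reported.

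The ubiquitous and single-form probe sets were mostly bright. The 14 with a mean above 13 had differences below 0 with a median of -0.17 and 6 calls, and in none did the groups overlap. The dim tested probe sets of Cox5b and Cox8a, with means of 7.05 and 6.64, also had differences below 0, at -0.35 (SE 0.18) and -0.20 (SE 0.24), without a call. Among all 608 tested probe sets above 13 the median was -0.056, 20.6% were called lower and 35.5% had every Rhau KO array below every wildtype array. Rhau KO replicate 2 was the lowest Rhau KO array in 12 of the 14, and in 65.3% of the 608. These signals reach close to the highest value on the arrays, 15.21, and whether they were saturated was not tested. Cox7a1 and Cox8b lie lower on the scale, with means of 11.99 and 10.77.

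**Figure D2:**
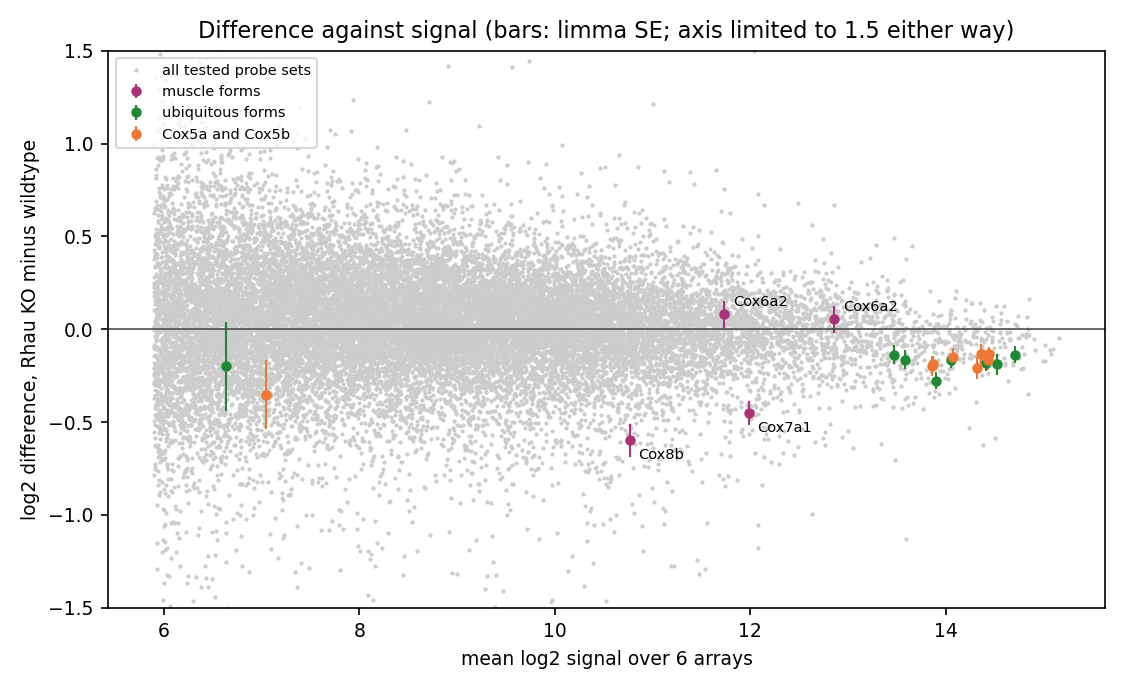
Log2 difference between the labels (vertical axis, Rhau KO minus wildtype) against mean log2 signal over the 6 arrays (horizontal axis) for the tested probe sets in grey, with the vertical axis cut at differences of 1.5 either way, and the 20 tested member probe sets in colour, with limma SEs as bars. The bright ubiquitous and single forms sit together between -0.13 and -0.28 above a signal of 13, Cox8b and Cox7a1 at -0.60 and -0.45, and both Cox6a2 probe sets just above 0.

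Within each pair the muscle form was set against its ubiquitous partner on the same array. The level of one probe set cannot be compared with that of another, so only the shift of the log2 ratio between the labels is given. The SE of a shift comes from the spread of the arrays alone, not from limma. The ubiquitous partners are among the bright probe sets described above, and whether saturation touched these ratios was not tested. The ratio of Cox7a1 to Cox7a2 was lower under the Rhau KO label by 0.31 on the log2 scale (-0.31, SE 0.095, n = 3 each), and that of Cox8b to Cox8a by 0.43 (-0.43, SE 0.13). In both pairs the groups did not overlap. The ratio of Cox6a2 to Cox6a1 shifted the other way, by 0.24 (SE 0.11), and its groups overlapped, since wildtype replicate 1 lay above Rhau KO replicate 3. Two-sided exact permutation of 3 against 3 arrays cannot give a p below 0.10, and none was computed for these chosen pairs.

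**Figure D3:**
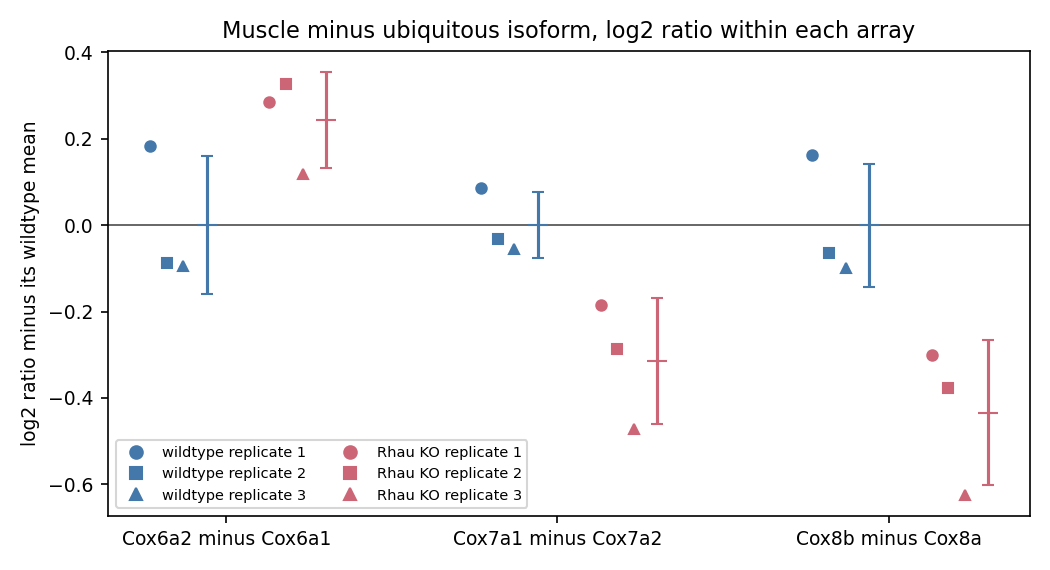
Log2 ratio of muscle to ubiquitous form on each array, minus the pair's wildtype mean (vertical axis), for the 3 pairs; points are arrays and bars give mean ± SD (n = 3). Shifts of -0.31 for Cox7a1 over Cox7a2 and -0.43 for Cox8b over Cox8a leave a gap between the groups, and the shift of 0.24 for Cox6a2 over Cox6a1 does not.

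Ordered by rising Y-linked signal, the 6 arrays run from wildtype replicate 1 to Rhau KO replicate 3. In that order Cox7a1 and Cox8b decreased at each step, within as well as between the labels. In wildtype replicates 1 and 2 (1.23% and 2.04%) each Y-linked gene lay below the filter at 5.90, so the order of those arrays is not informative. How many of all tested probe sets keep this order was not counted. Cox6a2 and Cox6a1 did not keep that order. When Y-linked signal entered the fit as a covariate, Cox7a1 differed by -0.19 (SE 0.12), Cox8b by -0.23 (SE 0.16), Cox6a1 by -0.23 (SE 0.14) and Cox8a by -0.18 (SE 0.12), while Cox6a2 stood at 0.27 (SE 0.15), and limma called 0 of the 20 probe sets (1 lower and 1 higher at an unadjusted p under 0.05). That fit called 0.518% of all tested probe sets lower, and the median SE was 0.253 against 0.117 without the covariate, so nothing particular to these genes is read from the lost calls. In that fit the ratios of Cox7a1 to Cox7a2 and of Cox8b to Cox8a shifted by -0.018 and -0.051, and that of Cox6a2 to Cox6a1 by 0.50. No SE was computed for these adjusted shifts, so nothing is read from their distance to the unadjusted values. Among the 3 arrays that carried both Xist and Y-linked signal, a subset chosen after seeing the data, 1 wildtype array stood against 2 Rhau KO arrays and was assumed to vary like them. The differences were -0.35 (SE 0.11) for Cox7a1 and -0.44 (SE 0.12) for Cox8b, with 0 calls by limma (4 lower at an unadjusted p under 0.05) where 2.22% of all tested probe sets were called lower. The label and the sex-linked signal differ together in these arrays, and their separate parts were not tested beyond these fits.

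**Figure D4:**
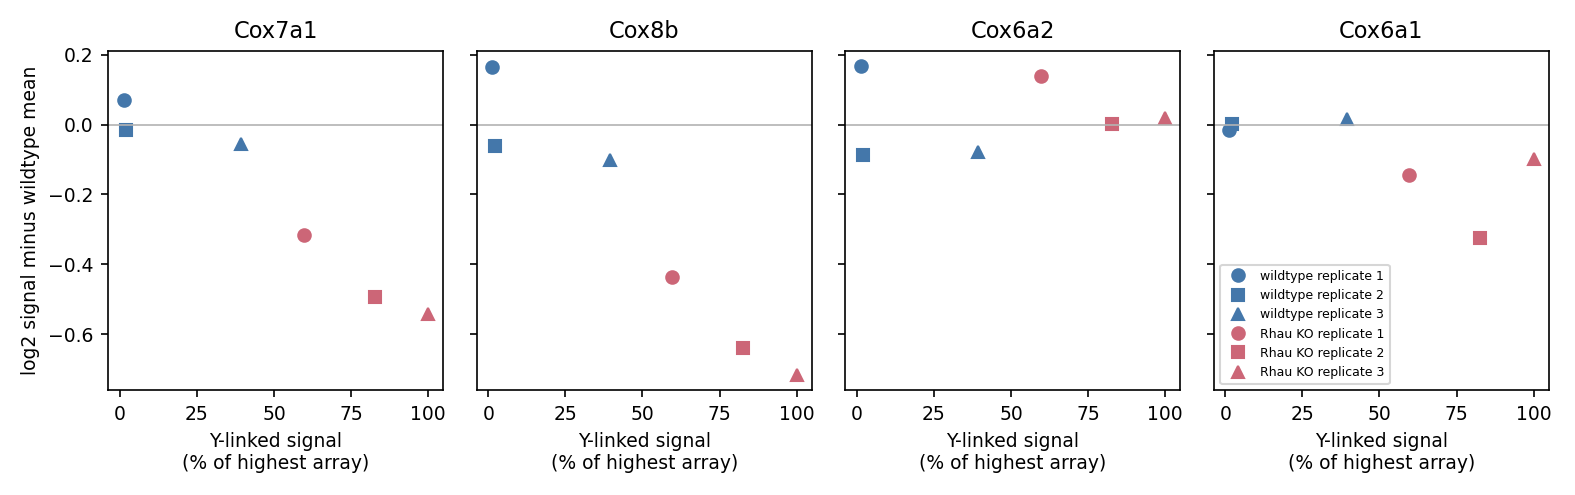
Log2 signal minus the wildtype mean (vertical axis) against Y-linked signal in % of the brightest array (horizontal axis) for Cox7a1, Cox8b, Cox6a2 and Cox6a1 on the 6 arrays. Points of Cox7a1 and Cox8b step down from the array at 1.23% to the one at 100%. Those of Cox6a2 and Cox6a1 do not follow that order. How many of all tested probe sets do was not counted. In wildtype replicates 1 and 2 the Y-linked genes lay below the filter, so the order of those arrays is not informative.

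Muscle forms of these subunits are also made in skeletal muscle and brown fat. Markers of both tissues were near the lower end of the scale: all 5 skeletal muscle regulators (Myod1, Myog, Myf5, Myf6 and Pax7) were below the filter, with summed linear signals of 124 to 148 in wildtype arrays against 113 to 234 in Rhau KO arrays. Of the 3 brown fat markers, Ucp1 and Elovl3 were below the filter, and the summed signal was 134 to 187 against 131 to 203. Of 7 tested mural cell markers, which mark the pericytes and smooth muscle cells around vessels, 1 was called higher and 1 lower, where 7.04% and 9.96% of all genes tested were. Endothelial markers had 3 of 6 called higher and 0 lower (0 at an unadjusted p under 0.05 in limma), macrophage markers 2 of 5 higher, and epicardial and fibroblast markers 1 of 6 higher; their part in the results was not tested.

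The tested genes with the array profile most like the mean of the muscle forms were Col4a2, Plaat1, Abi2, Dnajc15 and Eprn, with Pearson correlations of 0.998, 0.996, 0.996, 0.993 and 0.993 over the 6 arrays. They were selected for this likeness, and the arrays share the group difference. Of the muscle forms themselves, Cox8b and Cox7a1 correlated with that mean at 0.99 and 0.98 and Cox6a2 at 0.20. Differences between the labels were -0.14 for Col4a2, -1.44 for Plaat1, -0.30 for Abi2, -0.15 for Dnajc15 and -0.19 for Eprn.

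The other complex IV subunits were measured for 8 of 12 listed genes, each by its brightest probe set, and 2 fell, 0 rose and 6 were not called (limma; 0 higher at an unadjusted p under 0.05 as well). Their median difference was -0.16, against 0.011 over the 12416 genes tested by their brightest probe set, of which 9.96% were called lower. This list and those that follow were drawn up with earlier results of these data known. The p-values given belong to genes named because they were called, so they are a description. Ndufa4, a subunit once assigned to complex I, fell from 14.14 ± 0.012 to 13.93 ± 0.11 (mean ± SD, n = 3 each; limma adjusted p = 0.027). Cox6b1, a subunit on the intermembrane side, fell from 14.78 ± 0.013 to 14.59 ± 0.079 (limma adjusted p = 0.0252). Both are bright probe sets of the kind described above, and both calls were lost when wildtype replicate 1, 2 or 3 or Rhau KO replicate 1 was left out. A second Cox6b1 probe set stood at -0.16 without a call. Cox6c was at -0.042 and Cox7a2l at -0.15 without a call, and a second Cox6c probe set stood on the other side, at 0.15. The genes mt-Co1, mt-Co2, mt-Co3 and Cox7b were not analysed here.

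Factors that assemble the enzyme, together with cytochrome c, had 24 tested genes, of which 6 fell, 0 rose by limma (3 higher at an unadjusted p under 0.05) and 18 were not called, where 9.96% of all genes tested were called lower and 7.04% higher. Their median difference was 0.0043, with 12 of the 24 below 0. Cox10, which makes the heme precursor of the heme A group in the catalytic core, measured 9.97, 9.96 and 9.996 in wildtype replicates 1 to 3 and 9.15, 9.21 and 9.08 in Rhau KO replicates 1 to 3. The groups lay far apart, and the 1.78-fold decrease (log2 difference -0.83, SE 0.073) had limma adjusted p = 7.07e-05. A second Cox10 probe set fell by 0.52 (limma adjusted p = 0.00314), and the first stood at -0.81 under the Y-linked covariate, where it was not called (limma adjusted p = 0.0733).

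Coa5, an assembly factor, fell by 0.41 (SE 0.060, limma adjusted p = 0.0015), and its other probe set stood at -0.35 without a call. Cox20, a chaperone of the core subunit encoded by mt-Co2, fell by 0.36 (SE 0.052, limma adjusted p = 0.00146). Cox19 and Cmc2, small proteins of the intermembrane space, fell by 0.26 each (limma adjusted p = 0.0134 and 0.00943), and the call of Cox19 was lost without wildtype replicate 1. The other tested Cmc2 probe sets stood at -0.14 and -0.20 without a call. The other call was Cycs, cytochrome c itself, named outside the rule after its value was seen; it fell by 0.22 on its brightest probe set and by 0.27 and 0.37 on the others above a signal of 13.

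Of 19 regulators of mitochondrial genes, 4 were called higher and 2 lower, where 7.04% and 9.96% of all genes tested were. The count of lower calls was thus near the share over all genes. Ppargc1a, a coactivator that raises expression of respiratory genes, measured 10.42, 10.39 and 10.33 in the wildtype arrays against 11.24, 10.91 and 11.04 in the Rhau KO arrays. It rose by 0.68 (SE 0.082, limma adjusted p = 0.000475), and all 5 of its probe sets were called higher. Its relative Ppargc1b fell by 0.33 (SE 0.076, limma adjusted p = 0.0155), a call lost without wildtype replicate 1 or 2. Hif1a, the oxygen-regulated transcription factor, rose by 0.49 (SE 0.055, limma adjusted p = 0.000339). Esrrg, a nuclear receptor active at respiratory genes in heart, rose by 0.29 (SE 0.063, limma adjusted p = 0.0128), a call lost with median centring at 0.22. Its other probe sets stood at 0.36 and -0.011 without a call. Cxxc5, reported in human cells to act on the oxygen-responsive promoter of COX4I2, fell by 0.46 (SE 0.060, limma adjusted p = 0.000805). The other call was Pprc1, a relative of Ppargc1a named outside the rule after its value was seen, which rose by 0.27 (limma adjusted p = 0.0247). Under the Y-linked covariate Ppargc1a, at 0.93 (SE 0.17), alone kept its call among the 12 genes named by rule from these 3 lists, with larger SEs throughout. The differences of Coa5 (-0.54), Cox20 (-0.41), Cmc2 (-0.28), Ndufa4 (-0.26) and Cox6b1 (-0.21) were larger in size in that fit. Those of Cox10 (-0.81), Hif1a (0.39), Cxxc5 (-0.35), Ppargc1b (-0.30), Esrrg (0.29) and Cox19 (-0.18) were smaller.

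**Figure D5:**
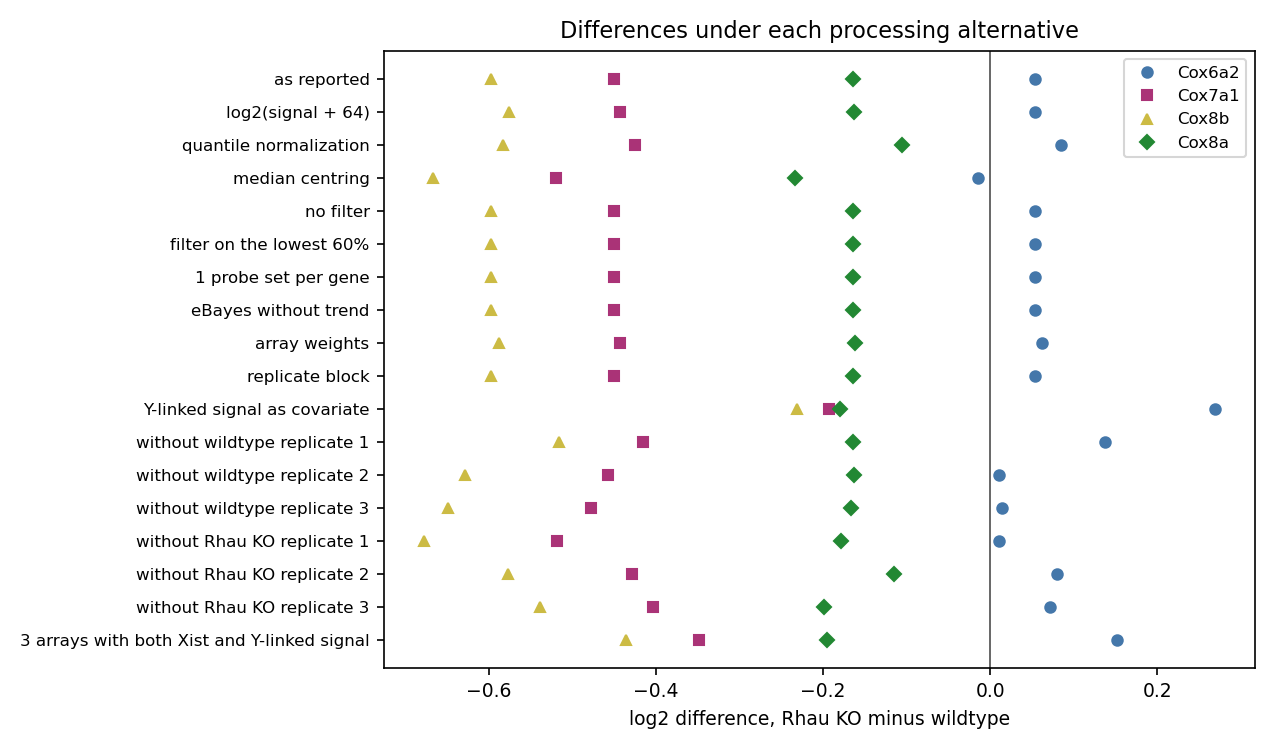
Log2 difference between the labels (horizontal axis) of Cox6a2, Cox7a1, Cox8b and Cox8a by their brightest probe set, under the reported processing and each alternative (vertical axis). Cox7a1 and Cox8b stay below 0 throughout and come nearest to it, at -0.19 and -0.23, under the Y-linked covariate, and Cox6a2 crosses 0 with median centring.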

How the data were processed

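Embryonic mouse hearts at stage E12.5 were profiled on an Affymetrix whole-genome mouse array, 1 array per sample, after 3′ amplification and biotin labelling of total RNA per the labels' protocols. Signals are deposited on the log2 scale; the authors used MAS5, per the submitters' processing notes (MAS5 settings and version: not given in the sources used here). On the linear scale, each array's 2% trimmed mean was 500. Values were used as deposited, and 0 columns had no sample. Control probe sets (64) were dropped, and genes were named by GEO's platform annotation, which gives no build. Of 34945 probe sets naming 1 gene, the 22796 with a mean log2 signal above the lowest 40% of all probe sets (5.90) entered a limma 3.58.1 fit (R 4.3.3; lmFit, eBayes with trend, two-sided, Benjamini-Hochberg over all tested, threshold 0.05). There is no read depth, so precision rests on the 3 arrays per group.

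Genes and lists were chosen with earlier results of these data known. Named outside the members were Dhx36, up to 5 called genes of largest difference per list, and the 5 genes most correlated with the muscle forms. Other list members are given as values or named as exceptions. Alternatives were median centring, quantile normalization, a pseudocount of 64, a filter at 60% or none, 1 probe set per gene, mean of a gene's probe sets, eBayes without trend, array weights, a replicate block, the Y-linked covariate and leaving out each array; the subset of 3 arrays was chosen after seeing the data. The procedure was tested on simulated data. Python 3.11.15, pandas 2.3.3 and matplotlib 3.10.9 handled sequences and plots.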

Additional observations from a re-analysis of the deposited data

How the results depend on the processing

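The differences of Cox7a1, Cox8b, Cox4i1, Cox5a, Cox5b, Cox6a1 and Cox7a2 stayed below 0 under every alternative run. Signs turned for Cox6a2 (-0.015 with median centring and, on its other probe set, -0.0010 without Rhau KO replicate 1, in a range up to 0.12 without 1 array) and for the dim Cox8a probe set (0.023 without Rhau KO replicate 2, in a range from -0.40). Calls were less stable. The 8 lower member calls (7.84% of all tested probe sets were called lower) became 15 with median centring (10.7% of all), 4 with no filter (4.31%), 2 by eBayes without trend (4.26%), 0 with the Y-linked covariate (0.518%; 1 member at an unadjusted p under 0.05), 0 in the subset of 3 arrays that carried Xist together with Y-linked signal (2.22%; 4 unadjusted), and 3 to 13 when 1 array was left out (4.94% to 6.76%). The 2 lower calls among other subunits became 0 with no filter, by eBayes without trend, with the Y-linked covariate and in those 3 arrays (limma; 3, 2, 1 and 2 at an unadjusted p under 0.05), and 0 to 2 without 1 array. In the assembly list the 6 lower calls became 3 by eBayes without trend, 0 with the covariate (5 unadjusted) and 2 in the 3 arrays, and 4 to 6 without 1 array, with 0 to 1 higher. Among regulators the 2 lower calls became 1 by eBayes without trend, 0 with the covariate, 0 in the 3 arrays (2 unadjusted in each) and 1 to 3 without 1 array; the 4 higher became 2 with median centring, 1 with the covariate, 1 in the 3 arrays and 3 to 5 without 1 array. The covariate raises the median SE from 0.117 to 0.253, and the 3 arrays leave 1 wildtype array, assumed to vary like the others; other causes were not tested.

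The ratio shifts were 0.50, -0.018 and -0.051 with the covariate for the pairs of Cox6a2, Cox7a1 and Cox8b, and 0.40, -0.18 and -0.24 in the 3 arrays. No SE was computed for these shifts. Without 1 array they ran from 0.20 to 0.34, from -0.38 to -0.24 and from -0.50 to -0.34. The other alternatives moved them by less than the spread between arrays. The replicate numbers did not pair the arrays: deviations from the group means correlated at 0.0031, 0.050 and 0.0043 between arrays of the same number. With the replicate number as a block the member count was 7 lower and 0 higher, the other subunits had 2 lower and the ratio shifts kept their values of 0.24, -0.31 and -0.43. Groups of 3 are too small for the check for single outlying arrays.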
